A study of Mus musculus with 24 samples.

Results

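The comparison described here sets embryoid bodies (EBs) of day 2 against EBs of day 1 in mouse embryonic stem cells that lost Eed and received wild-type EED again. It rests on 4 of the 24 poly(A) RNA-seq libraries of the series, chosen by their titles: 2 libraries of KO+WT EBs at day 2 and 2 libraries of KO+WT EBs at day 1. All 23284 gene symbols of the deposited count table entered. KO+WT stands for the C57BL/6 line that carried the conditional Eed allele, was treated with 800 nM 4-hydroxytamoxifen to delete it, and was titled as knockout plus wild-type EED. The genotype field of the labels gives only the knockout for it, so the rescue is known from the titles alone. For reference, 3 further lines were sampled on the same days: KO, which had the tamoxifen and no rescue, KO+N-KR, which had the tamoxifen and an EED form labelled N-KR that the labels do not spell out, and f/f, the conditional line without tamoxifen. Each of the 4 lines was also sampled in a state labelled 3i. Before that the stem cells grew in serum medium with LIF, over feeder cells (mouse embryonic fibroblasts). How EBs were formed, the vector and promoter behind the EED rescue, and how many clones a line held is information not given in the sources used here.

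An embryoid body is an aggregate that forms when embryonic stem cells are moved from adherent culture to suspension without factors that hold them undifferentiated. Its cells leave the naive state, in which factors such as KLF4 and ESRRB support self-renewal, and pass through a formative, epiblast-like state marked by Fgf5 before germ layer genes appear. EED is the subunit of Polycomb repressive complex 2 (PRC2) that binds methylated lysine 27 of histone H3 and stimulates the methyltransferases EZH1 and EZH2, and PRC2 holds many developmental genes silent in these cells. SKP1A, an adaptor of SCF-type ubiquitin ligases, is named in the series title as the agent of PRC2 degradation, ahead of the activation of Polycomb-silenced genes. The second EB day in this line is therefore that early step in cells titled as holding wild-type EED again. Only RNA is described here, so restored EED protein is not shown.

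The 2 libraries of each group differed by 1.10 to 1.18 times the variance of binomial sampling, against 53.6 times between day 2 and day 1 of KO+WT, and the labels name no separate cultures for them. They were summed and counted as 1 sample, so KO+WT day 2 and KO+WT day 1 are 1 sample each. Library totals ran from 7553683 to 14426034 counts and those of the 12 summed samples from 18017598 to 25160294. A difference was tested with edgeR's quasi-likelihood test on the 12 sums, where the spread comes from how unevenly the states changed among f/f, KO and KO+N-KR, and KO+WT is assumed to vary like them (4 residual degrees of freedom). The p-values therefore say nothing of the spread between independent KO+WT cultures. Levels are CPM, each library's counts rescaled to a common total, with TMM factors, and changes are log2 of day 2 over day 1 with the standard error of that fit.

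Of 15558 genes tested, 1528 (9.82%) were higher and 1207 (7.76%) lower at day 2 than at day 1 at an adjusted p under 0.05. At least 2-fold changes were fitted for 893 of the higher and 339 of the lower genes, but 373 of the higher and 78 of the lower genes were under 5 CPM on both days. Among the 10934 genes tested with 5 CPM or more on the higher day, 1155 (10.6%) were higher and 1129 (10.3%) lower. The shares of all genes set beside gene lists below include genes with fewer reads, so for lists of well expressed genes these shares are the nearer ones. Without the f/f line the fit called 942 higher and 738 lower, without KO 1732 and 1395, and without KO+N-KR 1643 and 1349. DESeq2 called 1009 higher and 1085 lower, so the excess of higher calls was not found there. Among the genes called higher, 95 had 3 reads or fewer at day 1, and 12 genes called lower had that few at day 2, so their fitted fold changes depend on a few reads. A rule of size with no test, a change of 2-fold or more and 5 CPM or more on the higher day, picked 552 higher genes (5.05% of 10934) and 270 lower genes (2.47%). Both rules picked 516 higher and 261 lower genes, with median log2 ratios of CPM of 1.37 and −1.40. The 516 higher genes had a median level of 8.20 CPM at 3i, 4.81 CPM at day 1 and 14.2 CPM at day 2, and the 261 lower genes one of 20.5, 30.5 and 9.89 CPM. In total the 516 genes took 13480 CPM at day 2, against 5029 CPM at day 1, and the 261 genes took 8027 CPM at day 2, against 20520 CPM at day 1. Both sets were chosen for a change of 2-fold or more between these same samples, so the gap between the days follows from the choice. RNA of whole EBs was measured, so fewer cells of a type and less RNA per cell cannot be told apart.

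**Figure D1:**
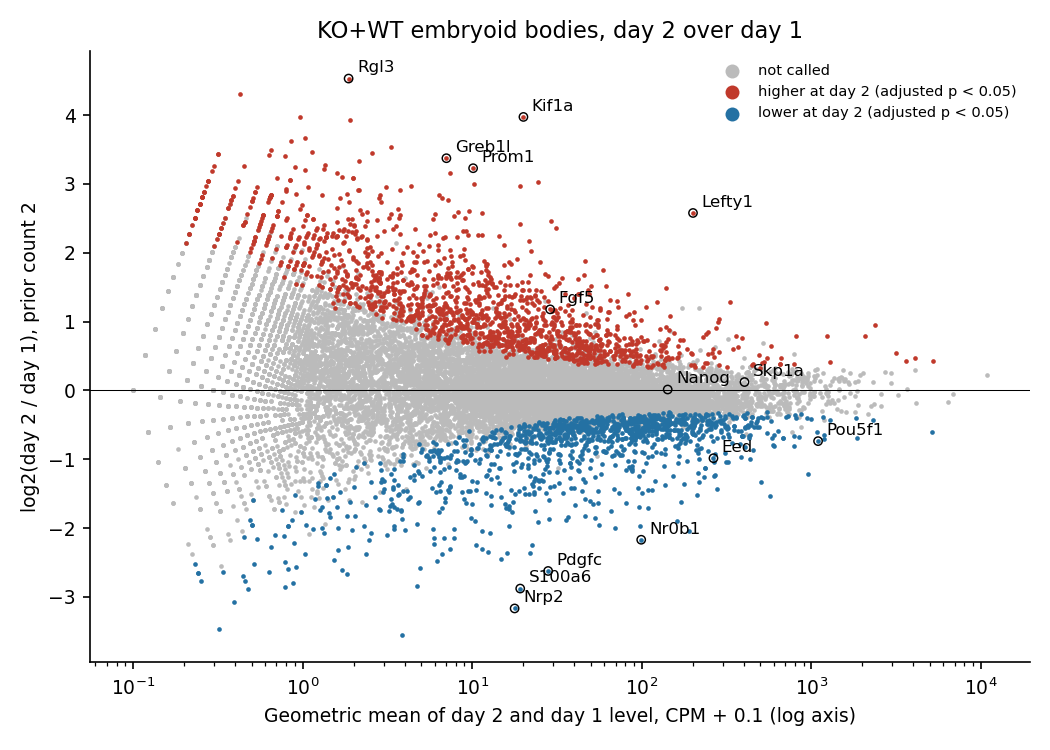
Level against change for the 15558 genes tested in KO+WT embryoid bodies. The horizontal log axis is the geometric mean of the day 2 and day 1 levels in CPM, the vertical axis log2 of day 2 over day 1, and colours mark the 1528 genes called higher and the 1207 called lower. Lefty1 combines a rise of 2.58 with a level of 489.8 CPM at day 2.

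The promoters of the leading genes are shown to let a reader see what lies at their starts: those of the 3 highest and 3 lowest of the 24 leading genes that have exactly 1 entry in the RefSeq promoter table. Each is 300 bases long, from 250 before to 50 after the annotated start, on GRCm38.p6, and is written 5′ to 3′ along the gene's strand. The count table was made on mm9, so these coordinates are not those of its annotation. The genes that were higher at day 2 are Rgl3 (chr9:21989404-21989703, minus strand), Fosb (chr7:19309996-19310295, minus strand) and Miat (chr5:112228899-112229198, minus strand). Those that were lower are Nrp2 (chr1:62703067-62703366, plus strand), Slc35d3 (chr10:19851410-19851709, minus strand) and S100a6 (chr3:90612644-90612943, plus strand). Capitals mark matches on either strand to 4 motifs. The TATA box was searched as TATAAA. The box that binds the factor NF-Y was searched as CCAAT. The GC box, which binds SP1, was searched as GGGCGG, and adjoining or overlapping matches run together. The AP-1 site was searched as TGANTCA, where N is any base, and has no match in these 6 promoters.
Rgl3: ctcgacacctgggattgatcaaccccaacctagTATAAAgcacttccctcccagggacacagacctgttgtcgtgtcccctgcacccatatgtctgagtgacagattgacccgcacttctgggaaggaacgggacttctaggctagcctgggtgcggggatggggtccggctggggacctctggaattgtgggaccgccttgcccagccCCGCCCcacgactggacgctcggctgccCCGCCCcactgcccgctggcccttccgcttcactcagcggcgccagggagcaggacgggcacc
Fosb: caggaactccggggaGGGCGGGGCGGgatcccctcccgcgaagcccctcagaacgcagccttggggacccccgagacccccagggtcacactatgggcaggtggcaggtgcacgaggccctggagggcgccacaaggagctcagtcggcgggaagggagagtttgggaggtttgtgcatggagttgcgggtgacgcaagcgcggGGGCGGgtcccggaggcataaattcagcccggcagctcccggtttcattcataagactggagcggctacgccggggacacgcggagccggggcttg
Miat: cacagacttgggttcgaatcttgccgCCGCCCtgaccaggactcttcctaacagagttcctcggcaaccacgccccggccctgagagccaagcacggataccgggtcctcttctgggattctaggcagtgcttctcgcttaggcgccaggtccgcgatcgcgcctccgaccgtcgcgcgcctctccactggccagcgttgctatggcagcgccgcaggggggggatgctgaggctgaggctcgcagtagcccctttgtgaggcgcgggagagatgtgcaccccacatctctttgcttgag
Nrp2: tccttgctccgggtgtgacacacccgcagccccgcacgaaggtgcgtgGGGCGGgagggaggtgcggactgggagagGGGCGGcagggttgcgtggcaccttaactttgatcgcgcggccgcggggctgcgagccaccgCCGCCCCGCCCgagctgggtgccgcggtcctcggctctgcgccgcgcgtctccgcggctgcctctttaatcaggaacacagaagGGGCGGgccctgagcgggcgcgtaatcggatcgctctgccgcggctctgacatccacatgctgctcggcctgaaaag
Slc35d3: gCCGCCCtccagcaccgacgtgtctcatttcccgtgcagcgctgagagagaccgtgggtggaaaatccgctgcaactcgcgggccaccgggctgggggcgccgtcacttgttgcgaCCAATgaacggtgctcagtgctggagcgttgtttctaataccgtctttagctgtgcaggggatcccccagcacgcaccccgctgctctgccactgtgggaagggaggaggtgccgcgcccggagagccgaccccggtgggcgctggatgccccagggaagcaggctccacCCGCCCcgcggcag
S100a6: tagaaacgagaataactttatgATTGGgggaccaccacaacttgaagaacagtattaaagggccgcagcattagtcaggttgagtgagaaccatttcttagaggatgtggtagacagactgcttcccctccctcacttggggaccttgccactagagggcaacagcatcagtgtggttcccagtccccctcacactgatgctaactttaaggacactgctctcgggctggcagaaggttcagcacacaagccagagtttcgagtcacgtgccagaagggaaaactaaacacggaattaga
Rgl3 alone of the 6 holds a match to TATAAA, with 2 GC boxes nearer its start. The match begins at base 34 of 300, far from the start, and whether it acts as a TATA box was not tested. Sequences that differ from TATAAA by a base were not searched. Fosb holds 3 GC boxes, Miat 1 and Nrp2 5, with no match to the other motifs. Slc35d3 holds 1 CCAAT box and 2 GC boxes, and S100a6 1 CCAAT box and no GC box.

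A promoter was listed for 351 of the 516 higher genes, 169 of the 261 lower genes and 10775 of all 15558 genes tested, and the first entry of each gene was read. Motif matches were counted at any position and on either strand. A match to TATAAA stood in 10.8% of the promoters of higher genes, 11.2% of those of lower genes and 7.35% of all tested. A CCAAT box stood in 30.5%, 28.4% and 38.8% of the same sets in that order. GC boxes were found in 68.1% of the higher, 60.9% of the lower and 63.0% of all promoters, and an AP-1 site in 4.84%, 8.88% and 4.97%. An observed-to-expected CpG ratio of at least 0.6, the usual mark of a CpG island promoter, was met by 59.8% of the higher, 53.8% of the lower and 67.7% of all promoters. These shares were not tested against each other.

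Of the 12 genes with the largest rise, 4 are described first. Kif1a, a kinesin that carries synaptic vesicle precursors along axons, was measured at 81.4 and 76.5 CPM in the day 2 libraries and at 4.51 and 5.68 CPM in the day 1 libraries. All of its day 2 values lay far above its day 1 values, and its change was 4.00 ± 0.28 (adjusted p = 2.63e-05). Prom1, the membrane glycoprotein CD133, had 28.8 and 33.6 CPM at day 2, against 3.40 and 2.90 CPM at day 1, a change of 3.26 ± 0.21. Greb1l, a relative of the oestrogen-induced gene Greb1, had 23.3 and 21.5 CPM at day 2, against 2.14 and 2.02 CPM at day 1 (3.43 ± 0.25). Setbp1, which encodes a partner of the SET protein, had 23.0 and 20.4 CPM at day 2, against 2.37 and 2.40 CPM at day 1 (3.20 ± 0.37). For these 4 genes the day 1 level was already above 2 CPM, so the ratio does not rest on a few reads.

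A further 7 stood at 1.01 CPM or less in both day 1 libraries. A rise in both replicates was part of how all 12 were chosen. Rgl3, of the family of Ral guanine nucleotide exchange factors, had 8.80 and 8.78 CPM at day 2, against 0.395 and 0.126 CPM at day 1, the highest change of the 12 (4.89 ± 0.62, adjusted p = 0.000502). Fosb, an AP-1 subunit and immediate early gene, had 8.39 and 5.73 CPM at day 2, against 0.395 and 0.379 CPM at day 1 (4.2 ± 1.04, adjusted p = 0.0173). The remaining 5 rose by 3.07 to 3.61: Miat, a long non-coding RNA, Sncb, which encodes beta-synuclein, Pde4b, a phosphodiesterase of cyclic AMP, Moxd1, a monooxygenase related to dopamine beta-hydroxylase, and Olfr1372-ps1, an olfactory receptor pseudogene.

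The 12 genes with the largest fall included Nrp2. Nrp2, a co-receptor for semaphorins and VEGF, had 5.50 and 6.28 CPM at day 2, against 52.0 and 55.0 CPM at day 1 (change −3.19 ± 0.31, adjusted p = 0.000119). S100a6, a calcium-binding protein, had 6.53 and 7.58 CPM at day 2, against 52.7 and 50.7 CPM at day 1 (−2.89 ± 0.31). Pdgfc, a platelet-derived growth factor, had 12.4 and 9.61 CPM at day 2, against 71.3 and 66.5 CPM at day 1 (−2.63 ± 0.19). These 3 genes lost most of their RNA between the days. A fall in both replicates was part of how all 12 were chosen. Gbx2, a homeobox factor that supports self-renewal in mouse stem cells and patterns the neural plate, had 10.3 and 8.50 CPM at day 2, against 52.0 and 45.7 CPM at day 1 (−2.38 ± 0.17). It stood at 8.82 CPM at 3i, so its day 1 level was the high one of the 3. A further 7 fell by between 2.38 and 2.91: Slc35d3, of a family of nucleotide sugar transporters, Tgm1, a transglutaminase, Mcc, Msln, which encodes mesothelin, H2-M5, a non-classical MHC class I gene, Notum, a secreted enzyme that inactivates WNT proteins, and Ttn, which encodes titin. Slc35d3 stood at 0.161 CPM at 3i and 12.5 CPM at day 1, and Ttn at 21.9 CPM and 36.2 CPM.

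**Figure D2:**
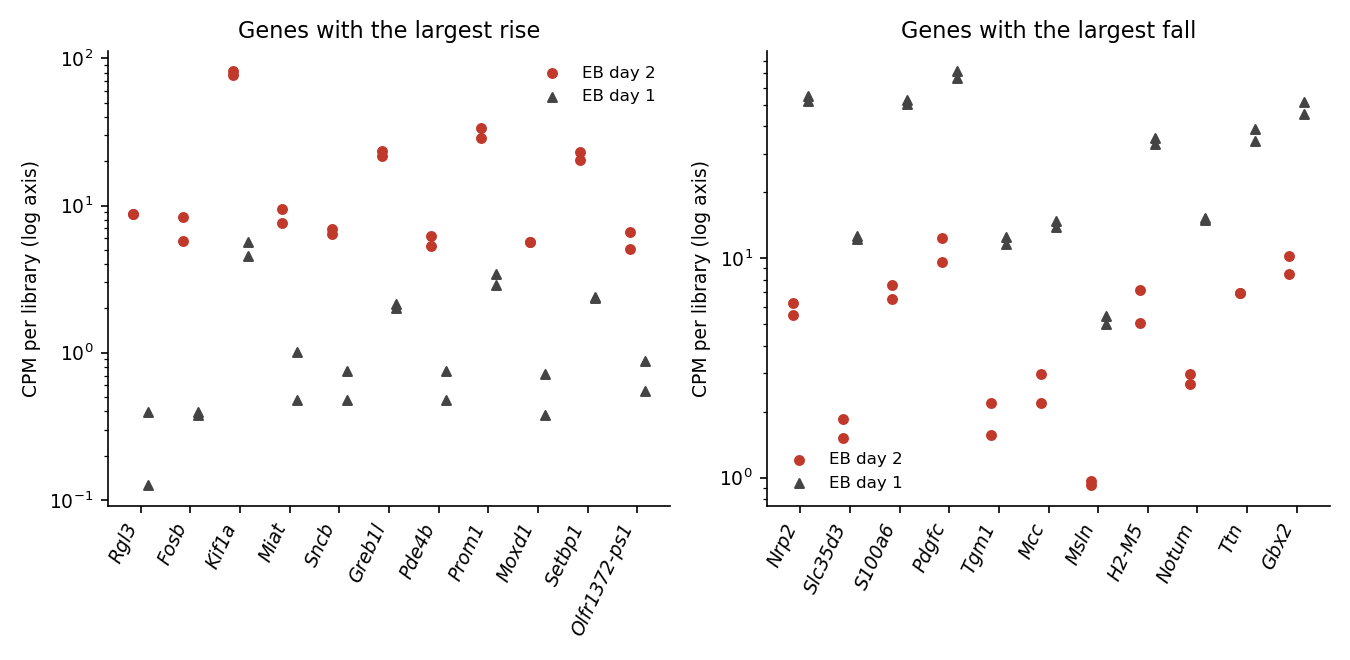
Levels of 11 of the 12 genes with the largest rise (left) and 11 of the 12 with the largest fall (right) in each KO+WT library. Circles are the 2 libraries of EB day 2 and triangles the 2 of EB day 1, in CPM on a log axis. The 22 genes were chosen for a change of 2-fold or more, in the same direction in both replicates. The gap between circles and triangles therefore follows from the choice.

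Eed, whose wild-type form was put back in this line by its title, had 190.1 and 185.2 CPM in the day 2 libraries, against 369.2 and 377.1 CPM in the day 1 libraries. It fell by 0.99 ± 0.11 (adjusted p = 0.000274). At 3i, day 1 and day 2 in that order, Eed RNA was at 386.3, 372.2 and 188.0 CPM in KO+WT, at 137.7, 173.6 and 102.0 CPM in KO, at 168.0, 181.4 and 121.8 CPM in KO+N-KR and at 175.4, 219.5 and 131.2 CPM in f/f. KO+WT was thus highest in all 3 states. KO kept Eed RNA at each of them, and a count per gene symbol does not separate transcripts of the deleted allele from those of the rescue. Eed changed by −0.77 in KO, −0.57 in KO+N-KR and −0.74 in f/f between day 1 and day 2, and the test of the difference between KO+WT and these lines gave −0.29 ± 0.13 (adjusted p = 1). Skp1a, which the series title names, had 418.9 and 422.6 CPM at day 2, against 380.5 and 396.0 CPM at day 1, and its change of 0.12 ± 0.10 did not pass the test (adjusted p = 0.440).

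Several genes of PRC2 fell. Of its 12 subunits tested, 6 (50%) fell and 1 rose. Falls were called for 7.76% of all genes and for 10.3% of those with at least 5 CPM on the higher day. The median change of the subunits was −0.35, against a median of 0.03 over all genes. Jarid2, an accessory subunit that helps PRC2 find its targets, had 319.6 and 321.4 CPM at day 2, against 814.1 and 785.2 CPM at day 1 (−1.33 ± 0.15, adjusted p = 0.000246). The gene listed as E130012A19Rik, now named Epop, fell by 1.24 ± 0.12 to 98.9 CPM at day 2, against 233.7 CPM at day 1. Aebp2, Mtf2 and Rbbp4 fell by 0.51, 0.37 and 0.32. Ezh1, the methyltransferase that predominates in cells that no longer divide, rose by 0.84 ± 0.16, to 64.7 CPM at day 2 against 36.2 CPM at day 1. The other methyltransferase, Ezh2, had 210.2 CPM at day 2 and 236.9 CPM at day 1, and the core subunit Suz12 had 293.4 CPM at day 2 and 347.9 CPM at day 1, and neither passed the test (−0.17 and −0.25). Of 21 subunits of PRC1, the complex that ubiquitinates histone H2A, 1 (4.76%) rose and 2 (9.52%) fell, near the 9.82% and 7.76% of all genes. Yaf2 rose by 1.11 ± 0.24, Kdm2b, which brings a PRC1 variant to CpG islands, changed by −1.04 ± 0.16, and the ubiquitin ligase Rnf2 by −0.49 ± 0.12. Of 12 SCF genes 1 rose and none fell.

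Few genes that PRC2 is known to silence passed the test. Of 35 textbook Polycomb targets outside the Hox clusters that could be tested, of 51 in the list, none rose and 1 (2.86%) fell. The shares of all genes were 9.82% higher and 7.76% lower, and the median change of the list was 0.01. That gene was Olig2, a transcription factor of motor neuron and oligodendrocyte precursors, with 31.0 and 32.1 CPM at day 2, against 62.6 and 64.1 CPM at day 1 (−1.01 ± 0.20). Of 14 Hox genes tested, of 19 listed, none passed. The 19 Hox genes summed to only 8.55 CPM at day 2 and 5.54 CPM at day 1. The 51 other targets summed to 122.3 CPM and 169.6 CPM. For genes with few reads the test could detect little, so a lack of calls does not show that they stayed silent. Hoxd13, at the end of its cluster, had 1.46 CPM at day 2 and 1.17 CPM at day 1. Hoxb3 was counted with 17 reads at day 2 and 2 reads at day 1 (ratio 6.89, 95% exact interval 1.64 to 61.5, for counting error only), and its change did not pass the test. Median changes of the tested Hox genes were 0.46 in KO+WT, 2.23 in KO, 0.02 in KO+N-KR and 0.91 in f/f. For the other Polycomb targets they were 0.01 in KO+WT, 1.05 in KO, −0.11 in KO+N-KR and −0.07 in f/f. Which genes were tested depended on reads in any of the summed samples, KO day 2 included. Hoxa3 was tested with 0.716 CPM in KO at day 2 and at most 0.323 CPM in any other sample. Dlx2, of the other targets, had 0.537 CPM there and at most 0.3375 CPM elsewhere. Hand2, by contrast, was highest in f/f at 3i (0.5205 CPM). Members let in by their KO level at day 2 can raise the KO medians by selection. How far they did was not tested. No single gene of either list passed the test of a difference between KO+WT and the mean of the other 3 lines. That mean holds KO, and the spread of the test includes how unevenly KO, KO+N-KR and f/f changed. It therefore cannot tell whether KO+WT differed from KO alone at these genes. None of the 11 genes of the 2-cell-like state passed either. Their medians were −0.18 in KO+WT, 1.35 in KO, −0.46 in KO+N-KR and 0.23 in f/f. Since members of the Zscan4 and Tcstv families are near-identical copies, their single values are uncertain.

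Pluripotency genes fell in part. Of 10 general pluripotency factors 6 (60%) fell and none rose (median −0.43), and of 15 naive factors 4 (26.7%) fell and 1 (6.67%) rose (median −0.49), against 7.76% lower and 9.82% higher over all genes. Without f/f in the fit 3 general factors were called lower, and without KO or without KO+N-KR 8 naive factors were. Pou5f1, which encodes OCT4, had 851.6 and 844.3 CPM at day 2, against 1417 and 1409 CPM at day 1 (−0.74 ± 0.10, adjusted p = 0.000662). Its 3i level was 948.2 CPM, so the day 1 level lay above both. Trim28, a co-repressor of retroelements, had 1463 and 1466 CPM at day 2, against 2378 and 2351 CPM at day 1 (−0.69 ± 0.09). Nanog, in contrast, had 140.3 and 145.9 CPM at day 2, against 144.5 and 136.2 CPM at day 1, and the libraries of the days overlapped (0.01 ± 0.19, adjusted p = 0.972). Over the 3 states Nanog was at 555.1 CPM at 3i, 141.4 CPM at day 1 and 142.7 CPM at day 2.

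Among naive factors the largest fall was that of Nr0b1, an orphan nuclear receptor that binds OCT4, with 45.9 and 47.7 CPM at day 2, against 214.6 and 203.5 CPM at day 1 (−2.17 ± 0.12, adjusted p = 8.29e-06). Klf5 fell by 1.39 ± 0.26 and Klf4 by 1.02 ± 0.14. Klf4 was at 529.6 CPM at 3i, 38.6 CPM at day 1 and 19.1 CPM at day 2, so most of its RNA was gone by day 1. Dppa3, also a germ cell gene, rose by 1.74 ± 0.36, with 14.8 and 14.5 CPM at day 2, against 5.30 and 2.90 CPM at day 1. Esrrb (−0.57) and Tfcp2l1 (−0.94) did not pass the test.

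Genes of the formative and primed epiblast went both ways: of 17, 2 (11.8%) rose and 4 (23.5%) fell (median −0.17), against 9.82% and 7.76% of all genes. Fgf5, the ligand that marks this state, had 43.2 and 43.3 CPM at day 2, against 18.8 and 19.4 CPM at day 1 (1.18 ± 0.23, adjusted p = 0.00500), and 0.592 CPM at 3i. Wnt8a rose by 2.06 ± 0.40, with 9.90 and 10.5 CPM at day 2, against 2.21 and 2.78 CPM at day 1. Pou3f1 and Otx2, transcription factors of the formative state, stood at 148.4 and 102.9 CPM at day 2, against 143.8 and 94.5 CPM at day 1, and did not pass the test. They had been at 6.19 and 9.90 CPM at 3i. Those that fell included the de novo methylation cofactor Dnmt3l (−1.53 ± 0.13), the WNT effector Lef1 (−1.40 ± 0.17) and the epithelial factor Grhl2 (−1.16). Dnmt3l was at 211.4 CPM at 3i, 973.5 CPM at day 1 and 336.1 CPM at day 2.

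Of the 9 genes for DNA methylation and its removal 5 (55.6%) fell and none rose (median −0.53), against 7.76% lower and 9.82% higher over all genes. Besides Dnmt3l these were the dioxygenase genes Tet2 and Tet1, the maintenance methyltransferase gene Dnmt1 and its partner Uhrf1. Tet2 had 57.6 and 59.1 CPM at day 2, against 156.5 and 156.4 CPM at day 1 (−1.43 ± 0.27), and Tet1 had 302.9 and 310.3 CPM at day 2, against 612.7 and 610.2 CPM at day 1 (−1.0 ± 0.13). Uhrf1 fell by 0.67 ± 0.10 and Dnmt1 by 0.52. The de novo methyltransferase Dnmt3b had 1231 CPM at day 2 and 1173 CPM at day 1.

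**Figure D3:**
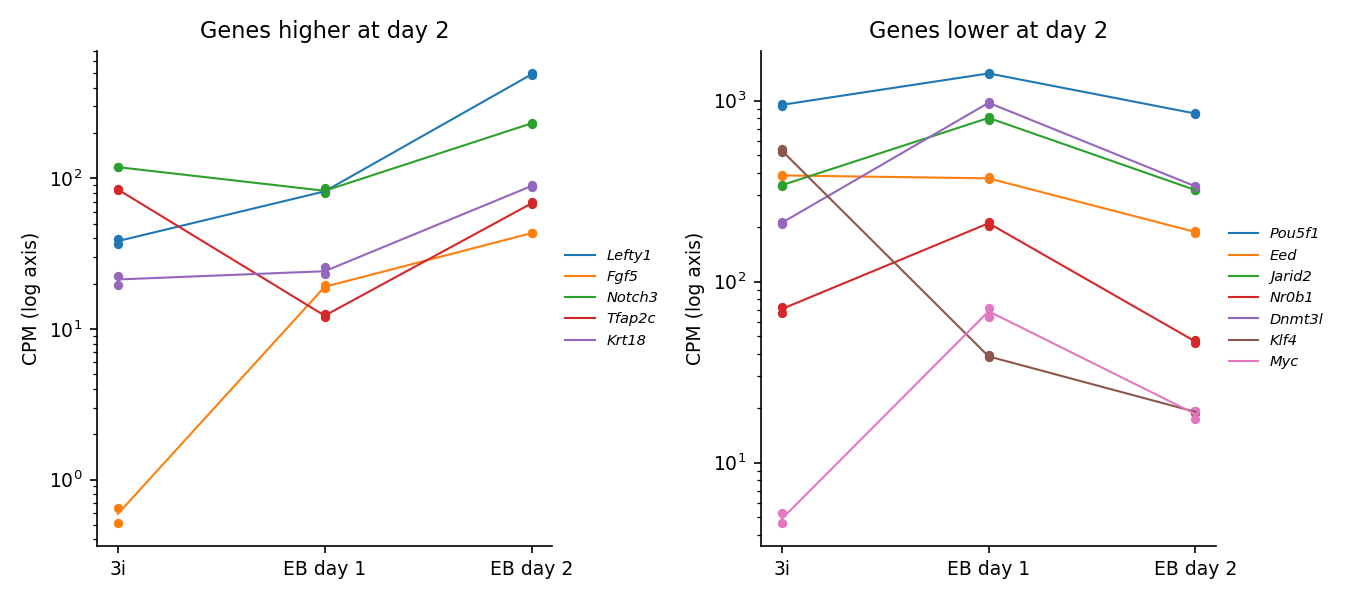
Levels of genes in KO+WT at 3i, EB day 1 and EB day 2, in CPM on a log axis. Lines join the summed samples and points are the 2 libraries of each state. On the left are 5 genes that were higher at day 2 than at day 1. On the right are 7 that were lower, of which Nr0b1, Jarid2, Dnmt3l, Pou5f1 and Myc had their highest level at day 1, while Klf4 was highest at 3i.

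Among signalling genes both rises and falls were called, and their shares stand beside 9.82% higher and 7.76% lower over all genes tested. Nodal signals through activin receptors and induces its own inhibitors of the Lefty family. Of 13 tested genes of this pathway 5 (38.5%) rose and 2 (15.4%) fell. Lefty1 had 483.5 and 498.3 CPM at day 2, against 81.5 and 82.6 CPM at day 1 (2.58 ± 0.32, adjusted p = 0.000448), and 38.3 CPM at 3i. Lefty2 rose by 1.29 ± 0.24, with 195.8 and 187.7 CPM at day 2, against 75.0 and 84.2 CPM at day 1. The ligand Gdf1 rose by 1.63 ± 0.34. The ligand Nodal itself had 87.2 CPM at day 2 and 88.6 CPM at day 1, and did not pass the test. Its co-receptor Tdgf1 fell by 0.39 and the ligand Gdf3 by 0.45, and without replicate 1 the list had 1 gene called lower.

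In the Notch pathway, in which receptors are cleaved on contact with ligands of neighbouring cells, 5 of 15 genes (33.3%) rose and none fell (median 0.48), against 9.82% and 7.76% of all genes. Notch3 had 233.4 and 229.5 CPM at day 2, against 80.0 and 86.8 CPM at day 1 (1.49 ± 0.17). Jag2, a ligand, rose by 0.99 ± 0.16. The target Hes1 (1.04 ± 0.31) and the ligand Dll3 (1.44 ± 0.46) were close to the threshold: without f/f in the fit 3 genes of the list were called higher, with an adjusted p of 0.0973 for Hes1 and 0.0834 for Dll3, and Hes1 had an adjusted p of 0.0522 without replicate 1. For genes listed as WNT feedback targets, 4 of 14 rose and 4 fell (28.6% each), and 2 were called higher without replicate 1 and 2 without replicate 2. Not all of them limit the pathway: the list also holds Lgr5 and the streak factor T. T is among those that rose and is counted with the primitive streak genes as well. Notum fell, with 2.96 and 2.68 CPM at day 2, against 15.0 and 15.3 CPM at day 1 (−2.41 ± 0.26), and Nkd2, an inhibitor of Dishevelled, rose by 1.67 ± 0.36. Lgr5, the R-spondin receptor, had 0.206 and 0.277 CPM at day 2, against 1.5 and 2.15 CPM at day 1 (−2.86 ± 0.71, with an adjusted p of 0.0608 without replicate 2).

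FGF receptors signal through ERK, which induces the feedback genes Spry4 and Etv4. Of 17 genes of this list 4 (23.5%) rose and 3 (17.6%) fell, against 9.82% and 7.76% of all genes. The receptor Fgfr2 had 21.8 and 23.1 CPM at day 2, against 5.30 and 7.07 CPM at day 1 (1.90 ± 0.24), and Fgf5 is described above. The feedback genes fell: Spry4 had 43.7 and 43.4 CPM at day 2, against 123.2 and 121.4 CPM at day 1 (−1.49 ± 0.13), and Etv4 49.8 and 40.6 CPM at day 2, against 144.9 and 140.3 CPM at day 1 (−1.64 ± 0.17). At 3i they had stood at 18.2 and 26.6 CPM. Among immediate early genes 3 of 11 (27.3%) rose and 1 (9.09%) fell. Fos, the partner of JUN in AP-1, had 28.7 and 28.6 CPM at day 2, against 3.40 and 3.66 CPM at day 1 (3.03 ± 0.59), and Jun rose by 1.69 ± 0.36. Fos was at 345.4 CPM, Fosb at 63.4 CPM and Jun at 69.9 CPM at 3i, so all 3 were lowest at day 1. Myc went the other way, with 19.4 and 17.5 CPM at day 2, against 71.7 and 63.6 CPM at day 1 (−1.89 ± 0.24), and 4.90 CPM at 3i. In the BMP list 1 of 16 (6.25%) rose and 2 (12.5%) fell, near the shares of all genes. The ligand Bmp7 changed by 2.62 ± 0.35 and the ligand Bmp4 by −1.5 ± 0.32. The other fall was that of Fst, an activin antagonist (−1.17 ± 0.35), whose adjusted p was 0.143 without replicate 1.

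Many germ layer genes were near the limit of detection. Of 12 tested genes of the primitive streak and mesendoderm, of 15 listed, 4 (33.3%) rose and none fell (median 1.38), against 9.82% and 7.76% of all genes, and 2 were called higher without replicate 1 and 2 without replicate 2. T, the T-box factor of the streak and mesoderm, was counted with 33 reads at day 2 and 3 reads at day 1 (ratio 8.92, 95% exact interval 2.80 to 45.5, counting error only). Its libraries had 1.38 and 1.2 CPM at day 2, against 0.158 and 0.126 CPM at day 1, and its change of 3.11 ± 0.97 was just past the threshold (adjusted p = 0.0466), with an adjusted p of 0.104 without replicate 1, 0.109 without replicate 2 and 0.116 by DESeq2. Mixl1, a homeobox factor of the streak, had 17 reads at day 2 and 1 read at day 1 (ratio 13.8, interval 2.16 to 576), and an adjusted p of 0.0671 without replicate 2 and 0.0651 without f/f. Fgf8, a streak ligand, had 2.82 and 4.07 CPM at day 2, against 0.237 and 0.631 CPM at day 1 (3.09 ± 0.65). The streak inducer Wnt3 had 28 reads at day 2 and 3 reads at day 1 (ratio 7.57, interval 2.34 to 38.9), and its fitted change did not pass.

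None of 10 definitive endoderm genes passed, and 2 passed as higher without replicate 1. Trh had 259.8 CPM at day 2 and 113.3 CPM at day 1. The counts of these short lists stand beside 9.82% higher and 7.76% lower over all genes tested. Of 13 mesoderm genes 1 (7.69%) fell, Bmp4, near the share of all genes. Of 9 neuroectoderm genes 1 (11.1%) rose and 2 (22.2%) fell, Gbx2 and Olig2. The rise was that of the intermediate filament Nes (1.46 ± 0.29), with 25.3 and 25.7 CPM at day 2, against 9.65 and 8.58 CPM at day 1. Among 8 neuronal genes 1 rose and 1 fell (12.5% each). Syp, which encodes synaptophysin, rose by 2.57 ± 0.36, with 9.07 and 8.22 CPM at day 2, against 1.82 and 0.883 CPM at day 1. Stmn2 fell by 1.45 ± 0.18, with 68.0 and 72.2 CPM at day 2, against 187.9 and 193.5 CPM at day 1. None of the 6 tested endothelial and blood genes passed.

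Of 18 markers of primitive and parietal endoderm 3 rose and 3 fell (16.7% each, against 9.82% and 7.76% of all genes). Dab2, an endocytic adaptor of that tissue, had 14.1 and 11.7 CPM at day 2, against 4.27 and 4.04 CPM at day 1 (1.64 ± 0.25). Sparc, a matrix protein that other tissues make as well, had 175.6 and 178.0 CPM at day 2, against 418.1 and 402.6 CPM at day 1 (−1.22 ± 0.12). Defining factors stayed low, with Gata4 at 2.64 CPM at day 2 and 1.26 CPM at day 1, and Sox17 at 0.749 CPM at day 2 and 0.292 CPM at day 1. Of 9 trophoblast genes 2 rose (22.2%): Tfap2c, also a germ cell factor, had 67.2 and 69.4 CPM at day 2, against 12.0 and 12.6 CPM at day 1 (2.48 ± 0.31), and the keratin Krt18 had 90.2 and 87.2 CPM at day 2, against 23.3 and 25.6 CPM at day 1 (1.88 ± 0.16). Tead4 fell by 1.04 ± 0.23. The defining trophoblast factor Cdx2 was counted with 3 reads at day 2 and 6 reads at day 1. Of 16 genes of germline and meiosis 4 (25%) rose and 1 (6.25%) fell, against 9.82% and 7.76% of all genes. Sycp3, of the synaptonemal complex, had 32.7 and 29.2 CPM at day 2, against 6.48 and 6.56 CPM at day 1 (2.26 ± 0.19). Dmrt1, a factor of germ cells and testis, had 58.3 and 60.6 CPM at day 2, against 19.7 and 17.9 CPM at day 1 (1.64 ± 0.23), and Tdrd1, of the piRNA pathway, rose by 1.76 ± 0.37.

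Feeder fibroblasts were part of the culture before EBs were formed, so their markers were read as well. Of 15 tested, 4 (26.7%, against 9.82% of all genes) rose and none fell (median 0.57), and 2 were called higher without replicate 1. Their summed level was 810.8 CPM at 3i, 120.2 CPM at day 1 and 158.4 CPM at day 2. The most abundant marker, Col1a1, had 33.8 CPM at day 2 and 34.1 CPM at day 1. The 4 that rose were Tagln (2.11 ± 0.41), Acta2 (1.97 ± 0.60), Thy1 (1.85 ± 0.35) and Loxl1 (1.39 ± 0.25). Without replicate 1 the adjusted p was 0.0832 for Acta2 and 0.138 for Loxl1, and it was 0.122 for Acta2 without replicate 2. Thy1, a surface protein that other cells carry too, had the most RNA of these, with 22.5 and 23.1 CPM at day 2, against 5.69 and 7.32 CPM at day 1. The part of fibroblast RNA in other changes was not tested.

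Pathways of metabolism and protein quality stand here beside 9.82% higher and 7.76% lower over all genes. Of 20 genes of hypoxia and glycolysis 5 (25%) rose and none fell (median 0.42), and 2 were called higher without f/f in the fit, 9 without KO and 9 without KO+N-KR. Aldoa and Pgk1, enzymes of glycolysis, had 2727 and 1633 CPM at day 2, against 1575 and 944.0 CPM at day 1 (0.79 ± 0.13 and 0.79 ± 0.15). Of 25 proteasome subunits 6 (24%) fell and none rose (median −0.26), with falls of 0.65 ± 0.13 for Psmd14 and 0.64 ± 0.11 for Psmc4. Of 15 chaperones and genes of the unfolded protein response 5 (33.3%) fell and none rose, and 3 were called lower without f/f in the fit. The small heat shock protein Hspb1 had 125.7 and 122.9 CPM at day 2, against 359.2 and 353.9 CPM at day 1 (−1.52 ± 0.17), and Hsph1 fell by 1.04 ± 0.14.

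Of 22 cell division genes 6 (27.3%, against 7.76% of all genes) fell and none rose, and 2 were called lower without f/f in the fit. All 3 D-type cyclins, which open the way into S phase, were among them. Ccnd3 had 87.3 and 82.7 CPM at day 2, against 223.7 and 216.2 CPM at day 1 (−1.37 ± 0.16), Ccnd2 fell by 1.43 ± 0.37 and Ccnd1 by 0.76 ± 0.22. Without f/f the adjusted p of Ccnd1 was 0.0598, and by DESeq2 that of Ccnd2 was 0.0791. None of 8 CDK inhibitors passed, while 2 did as higher without KO+N-KR in the fit. Of 30 imprinted genes 2 (6.67%) rose and 5 (16.7%) fell, against 9.82% and 7.76% of all genes. Meg3, a maternally expressed non-coding RNA, had 160.8 and 159.7 CPM at day 2, against 68.4 and 70.5 CPM at day 1 (1.21 ± 0.15), and the paternally expressed Peg3 had 168.8 CPM in each day 2 library, against 450.3 and 458.6 CPM at day 1 (−1.43 ± 0.15). Of 26 ribosomal protein genes only Rpl22 passed (0.47 ± 0.10), and 5 rose with library totals in place of TMM scaling.

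Of 17 genes of cadherins and the epithelial-mesenchymal transition 3 (17.6%) rose and 1 (5.88%) fell, against 9.82% and 7.76% of all genes. Cldn7, a tight junction protein, had 49.8 CPM at day 2 and 15.7 CPM at day 1 (1.67 ± 0.25). The matrix protease Mmp2 rose by 1.46 ± 0.15 and the cadherin Cdh3 by 1.00 ± 0.21, while Zeb1, a repressor of epithelial genes, had 6.53 and 6.84 CPM at day 2, against 16.0 and 18.3 CPM at day 1 (−1.34 ± 0.23). Of 15 p53 targets 2 rose, Btg2 (0.83 ± 0.22) and Pmaip1 (0.53 ± 0.14), and Btg2 had an adjusted p of 0.0676 without f/f in the fit. Of 20 genes of cholesterol synthesis 2 rose, Insig1 (0.73 ± 0.17) and Lss (0.51 ± 0.15), and 4 were called higher without replicate 1, while without f/f Lss had an adjusted p of 0.0980. Of 12 housekeeping genes 3 (25%) rose and 2 (16.7%) fell, among them Actb, with 1996 CPM at day 2 and 2696 CPM at day 1 (−0.43 ± 0.11, adjusted p = 0.0644 without f/f).

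**Figure D4:**
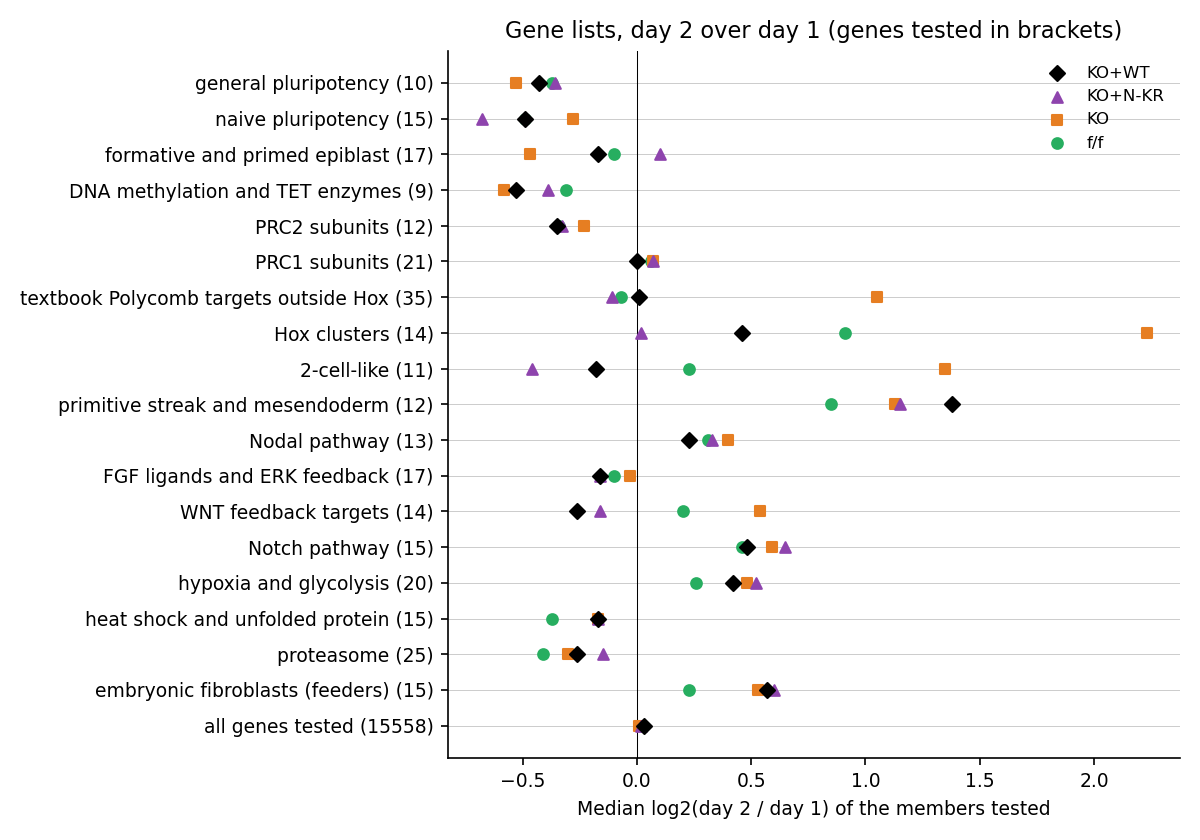
Median log2 of day 2 over day 1 for 18 gene lists and for all 15558 genes tested, in KO+WT and in the other 3 lines. Each point is the median over the members tested, whose number stands in brackets. Which line lies nearest to KO+WT varies by list. For DNA methylation and TET enzymes the medians were −0.53 in KO+WT, −0.58 in KO, −0.39 in KO+N-KR and −0.31 in f/f. For PRC2 subunits they were −0.35 in KO+WT, −0.23 in KO, −0.33 in KO+N-KR and −0.34 in f/f. The KO marker lies furthest to the right for the Hox clusters (2.23), the 2-cell-like genes (1.35) and other Polycomb targets (1.05). It does so in some further lists as well, such as WNT feedback targets (0.54). For the Hox clusters and other Polycomb targets, some members may have been tested because of their KO day 2 level, which can raise the KO median.

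The same step in the other lines shares no library with KO+WT, so it shows how far the course recurs. Of the 552 genes that the size rule called higher in KO+WT, 375 (67.9%) were also higher in KO+N-KR, 331 (60%) in KO and 330 (59.8%) in f/f, which is 73.2%, 57.8% and 75.3% of those lines' own lists. Of the 270 lower genes, 205 (75.9%) were also lower in KO+N-KR, 159 (58.9%) in KO and 202 (74.8%) in f/f, or 66.8%, 70.0% and 71.9% of their lists. The size rule called 4.69% of genes higher in KO+N-KR, 5.2% in KO and 4.04% in f/f, and 2.81%, 2.06% and 2.59% lower. No gene called in KO+WT was called in the opposite direction in another line. In all 3 other lines 222 of the higher and 132 of the lower genes were called alike, and in none of them 83 and 34. Across 11354 genes, which are not independent replicates, Pearson's r between the change in KO+WT and that in another line was 0.911 for KO+N-KR, 0.878 for KO and 0.892 for f/f.

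No gene passed the edgeR test for a change in KO+WT that differed from the mean change of KO+N-KR, KO and f/f (0 of 15558, 0%). DESeq2 also called 0. An unadjusted p under 0.05 by edgeR was found for 238 genes (1.53%), fewer than evenly spread p-values would give. The spread of this test holds the differences among the other 3 lines, so it could detect little. A lack of calls does not show that the lines changed alike. The fit to 24 separate libraries, whose noise is near that of repeated sequencing, called 930 of 14619 genes, 373 with a change in KO+WT above that of the others and 557 below, and only 46 of these differed by 2-fold or more. Some genes whose change in KO+WT stood apart from that in the other lines are given for inspection. They were chosen after their values were seen, so that they stand apart follows from the choice. Wider gaps were found for other genes. Lef1 fell by 1.40 in KO+WT, with 17.7 CPM at day 2 and 46.8 CPM at day 1, and changed by −0.74 in KO+N-KR, −0.63 in KO and −0.41 in f/f (difference −0.80 ± 0.19, unadjusted p = 0.00133, adjusted p = 1). Dnmt3l changed by −1.53 in KO+WT, −1.10 in KO+N-KR, −0.79 in KO and −1.03 in f/f (difference −0.56 ± 0.15, adjusted p = 1). Runx1t1, a transcriptional co-repressor, had 8.71 CPM at day 2 and 5.59 CPM at day 1 in KO+WT, a change of 0.63 at the prior count of the size rule, against 1.62 in KO+N-KR, 2.04 in KO and 2.02 in f/f. Cacna1g, a T-type calcium channel, changed by 1.22 in KO+WT, 2.34 in KO+N-KR, 2.83 in KO and 2.40 in f/f, and its day 1 level was 3.21 CPM in KO+WT, against 1.40, 1.12 and 0.817 CPM in those lines. Clca6, of a family of chloride channel regulators, changed by 2.91 in KO+WT, with 10.1 CPM at day 2 and 1.26 CPM at day 1, against changes of 1.60 in KO+N-KR, 1.46 in KO and 1.65 in f/f. For each of these 5 genes the change in KO+WT lay outside the range of the other 3 lines, and each had an adjusted p of 1 in the test of the difference.

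**Figure D5:**
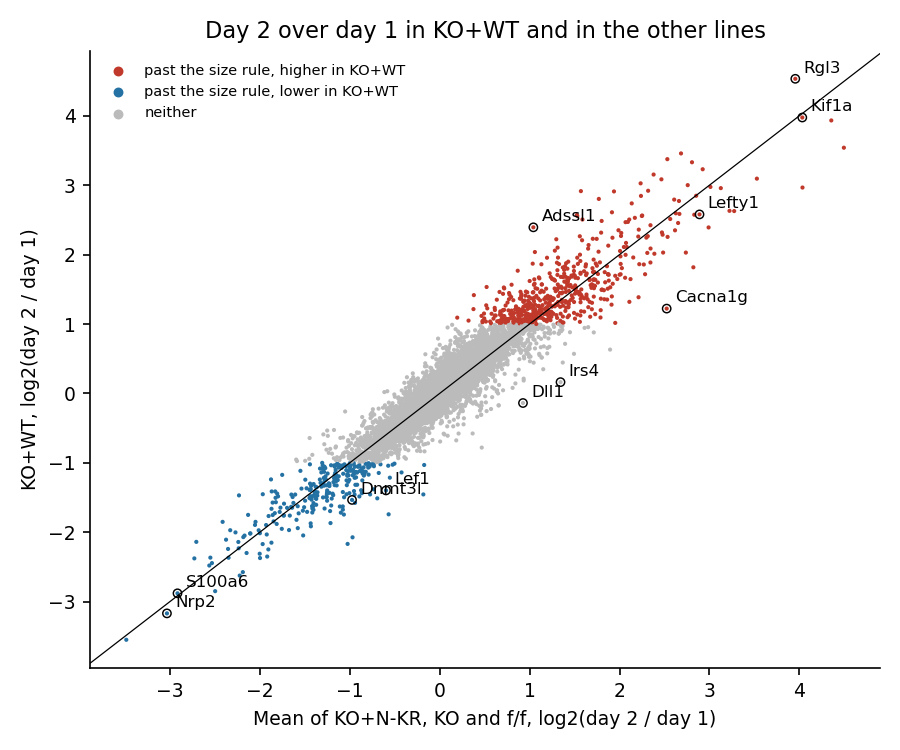
Change between the EB days in KO+WT (vertical axis) against the mean change in f/f, KO and KO+N-KR (horizontal axis), both as log2 of day 2 over day 1, for the tested genes with at least 5 CPM on 1 of the days in KO+WT. Colours mark genes past the size rule in KO+WT, and the line marks equal change. Points follow the line, with Cacna1g below it and Adssl1 above it.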

How the data were processed

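A count table of raw reads for 23284 gene symbols was deposited by the authors, with 30 columns. Of these, 24 match library names of the labels, and 6 were left out. Per the submitters' processing notes, STAR 2.5.2b and DESeq2 were used with the mm9 build. The counting tool, its strand setting and the annotation: each is not given in the sources used here. Without strand, genes that overlap or lie antisense cannot be told apart. The 2 libraries of each group were summed, because they differed by little more than sampling noise (genes with at least 20 reads per pair). edgeR 4.0.16 (R 4.3.3) was fitted to the 12 sums with line, state and the 2 EB states of KO+WT as terms (8 coefficients, common coefficient of variation 8.63%). It used TMM scaling, filterByExpr, the quasi-likelihood F-test and Benjamini-Hochberg adjustment over all genes tested, at a threshold of 0.05. The size rule needs a 2-fold change at a prior count of 2 and at least 5 CPM on the higher day, and gives no p. DESeq2 1.42.0 served as an alternative, and the fits were tested on simulated data. Standard errors were derived from each fold change and its F value. Intervals of read ratios are exact binomial intervals at 95% and cover counting error only.

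The 24 leading genes are the 12 highest and 12 lowest changes among genes called by edgeR, past the size rule and changed the same way in replicate 1 and in replicate 2 alone. From each of 38 gene lists the 4 largest changes among those called could be named, with Eed, Skp1a, Pou5f1, Nanog, Fgf5 and T in any case. Other genes named were chosen after their values were seen. The members and lists were chosen with earlier results of these data known. Some of the leading genes and list members are not reported here by name, though they count in each total.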

Additional observations from a re-analysis of the deposited data

How the results depend on the processing

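No named gene past the threshold changed sign under the alternatives run; Nanog, which did not pass (0.01), was between −0.01 and −0.04 in 4 of them. The edgeR counts of 1528 higher and 1207 lower genes became 942 and 738 without the f/f line, 1732 and 1395 without KO, 1643 and 1349 without KO+N-KR, 893 and 339 with a 2-fold minimum as well, and 4288 and 4133 when the changes of all 4 lines were averaged in an additive fit. DESeq2 gave 1009 higher and 1085 lower, which turns the excess of higher calls round. Without replicate 1 or replicate 2 they ran from 1063 to 1260 higher and from 935 to 1054 lower. Library totals in place of TMM moved the median change of all genes to 0.091, against 0.032, and gave 1814 higher and 966 lower. The size rule's 552 higher and 270 lower genes became 352 higher at 10 CPM, 1206 and 430 at 1 CPM and 174 and 82 at 3-fold, and ran from 559 to 585 higher and from 271 to 276 lower without a replicate. The test of the difference between lines called 0 genes in each 12-sample fit and 930 in the 24-library fit; the cause was not tested. Of 121 named genes past the threshold 22 lost their call in at least 1 of 11 settings, 17 of them without the f/f line (adjusted p up to 0.0980), 0 without KO and 1 without KO+N-KR; the cause was not tested. The 24-library fit called 4367 higher and 4168 lower, from 3380 to 3953 and from 3444 to 3829 without 1 of the 4 libraries, 4410 and 4190 with the replicate block, 3138 and 3490 by DESeq2 and 3943 and 4570 with no filter on low counts, the last 2 with more lower than higher calls. Library names in the labels start alike for all replicate 1 libraries and alike for all replicate 2 libraries, with no word on what this marks. Same-numbered libraries of day 2 and day 1 did not deviate together (r = −0.013 over 10737 genes), so the numbers were not taken as pairs. Depth limits genes near 1 CPM, such as T and Mixl1.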
